A study of Rattus norvegicus with 8 samples.

Results

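The genes described here encode proteins that dock and fuse synaptic vesicles or sit on their membrane, together with the SNARE proteins that drive fusion at the plasma membrane and inside the cell. They were taken by name from the array's annotation: syntaxins (Stx), synaptotagmins (Syt), vesicle-associated membrane proteins (Vamp) and complexins (Cplx) followed by a number, every name starting with Stxbp, Sv2, Rab3, Rims or Unc13, and Syn1, Syn2, Syn3, Syp, Snap23, Snap25, Snap29 and Snap91. That gave 76 genes on 97 probes, out of 41012 probes and 19814 gene names that carry a RefSeq accession. Where a gene had several probes (16 genes), the brightest over all arrays stands for it, and other probes are given for some of the genes that have several. The letters Rab3 also open the names of Rab31, Rab33a, Rab33b, Rab34, Rab35, Rab38 and Rab39, which are Rab proteins outside the Rab3 family, and these are kept as a group of their own.

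The samples were CA3 hippocampal neurons cut out of frozen brain sections of Sprague-Dawley rats by laser capture and hybridised to Agilent rat whole-genome arrays in a single colour. Naïve rats had no treatment, sham rats had the operation without injury, and injured rats had a moderate fluid percussion injury, with brains taken 24 hours later. From injured rats the neurons were split by Fluoro-Jade, a stain for degenerating neurons, into dying (stained) and surviving (unstained) cells picked near each other, in pools of about 600 neurons from several animals. Each of the 4 groups had 2 arrays, each made from a pool after repeated linear amplification, so that each array averages over animals and says nothing about single cells.

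A synaptic vesicle fuses when the vesicle SNARE Vamp2 zips together with a syntaxin and Snap25 on the plasma membrane, a reaction that Munc13 (Unc13) proteins set up, complexins clamp and promote, and synaptotagmins trigger when calcium enters. Rab3 and Rims proteins tether vesicles at the active zone, synapsins hold the reserve of vesicles, and synaptophysin and Sv2 proteins are among the most abundant proteins of the vesicle membrane. Other syntaxins and Vamps work in endosomes, Golgi and secretory granules of all cells, so the families hold both neuronal genes and genes that non-neuronal cells also use.

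Values are log2 of the processed signal over the median of the same array, so that 0 is the array's median probe and 1 unit is a 2-fold step. Array medians were 27.2 and 22.71 intensity units on the naïve arrays, 16.47 and 16.39 on sham, 52.21 and 48.17 on surviving, and 19.22 and 52.64 on dying. Of the 97 probes, 70 and 68 were well above background on the naïve arrays, 63 and 66 on sham, 76 and 75 on surviving, and 59 and 80 on dying. The dying arrays thus differed from each other more than any other pair. Across probes of these genes that passed the background mark in both replicates, the replicate correlation was 0.861 for dying (58 probes), against 0.935 for naïve (65), 0.976 for sham (60) and 0.973 for surviving (70), which is a description over genes that are not independent of each other. Among the 76 genes, 43 passed the background mark on all 8 arrays, and 8 on none (Cplx4, Rab33b, Rab39, Rims4, Stx16, Syt10, Syt9 and Unc13b), for which the arrays give no usable difference.

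Naïve and sham arrays shared a slide, and surviving and dying arrays shared another. Injury and slide therefore cannot be told apart in the comparisons with sham, while surviving against dying and sham against naïve are comparisons within a slide. The choice of scaling also matters for the comparisons with sham. Going from the array median to the median of probes above background on all 8 arrays moved the median difference of all probes tested by 0.97 in surviving minus sham and by 1.01 in dying minus sham, and scaling by the 75th percentile moved it by 0.78 and 0.73. Within a slide the largest shifts were -0.35 in surviving minus dying (scaling by RefSeq probes) and -0.42 in sham minus naïve (probes above background on all 8 arrays). For that reason medians are given below relative to the median of all probes, and the sign of each gene was checked under 6 other scalings.

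Whether neurons that degenerate and neurons that do not differ in these genes is the question of the comparison of surviving with dying cells. Most of the 57 genes tested were brighter in surviving neurons: 45 differences were positive and 12 negative, with a median of 0.58, against 0.14 over all probes tested and 0.37 over probes of RefSeq transcripts. The split was 34 and 23 with scaling by RefSeq probes (median 0.24), and 36 and 29 without dying replicate 1 (median 0.18). Relative to all probes the median stood 0.44 higher, and between 0.36 and 0.83 higher under the other scalings. Against each dying array alone it stood 0.83 and 0.05 higher, so that little of this lead is left with dying replicate 2. By limma, with p-values adjusted over all probes tested, 0 of the 57 genes passed an adjusted p of 0.05, as did 0 of 27393 probes in either direction (0% higher, 0% lower). At an unadjusted p under 0.05 the count was 4 genes higher and 2 lower in surviving neurons, beside 5640 of all probes (20.6%). The groups did not overlap for 22 genes that read higher in both surviving arrays and for 7 that read lower, beside 30.4% and 21.8% of all probes, and 37.0% and 11.8% of RefSeq probes, so these counts are close to the background of RefSeq probes. With 2 arrays against 2, an exact permutation test of a single gene cannot pass the threshold.

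Surviving neurons were set against sham neurons to see what injury leaves in cells that are not stained. Of 57 genes tested, 1 passed the test as higher (Syn1, which no sham array showed above background) and 6 as lower (Stxbp6, Snap25, Stx7, Vamp2, Syp and Rab3c), beside 5.78% of all probes called higher and 10.5% called lower, and 6.18% and 8.40% of RefSeq probes. Their groups did not overlap for 9 genes higher and 29 lower in surviving neurons, against 28.0% and 49.0% of all probes. The median difference was -0.5, only -0.07 from the median of all probes (-0.43), and its sign turned to positive under 5 of the 6 other scalings. Scaled by probes above background on all 8 arrays, 5 genes passed as higher and 3 as lower (5006 and 1394 of 26909 probes). The split was 3 and 3 under the 75th percentile (3861 and 1304) and 0 and 5 under the median of RefSeq probes (945 and 2829). After quantile normalisation it was 3 and 1 (2374 and 1658), and in the series table of the authors 3 and 2 (4349 and 1386 of 26917 probes). The count rested on single arrays: it was 0 with either sham array or either surviving array left out, 4 without either naïve array and 12 without either dying array. With only genes above background on all 4 arrays it was 0 higher and 3 lower.

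Dying neurons were set against sham neurons in the same way. Among 53 genes tested, 16 passed as lower and 2 as higher, beside 27.2% of all probes called lower and 13.6% called higher, and 30.1% and 12.2% of RefSeq probes. Against RefSeq probes the count of lower genes is thus near the background, and the count of higher genes lies under it. Dying and sham arrays did not overlap for 29 genes lower and 8 higher in dying neurons, against 45.8% and 30.9% of all probes. The median difference of -1.11 stood 0.65 under the median of all probes (-0.46) and 0.31 under that of RefSeq probes (-0.8), and the median stayed negative under every scaling, between -1.11 and -0.1. It was -0.42 without dying replicate 1 and -1.59 without dying replicate 2. Its gap to all probes was -1.32 with dying replicate 1 alone and -0.1 with dying replicate 2 alone, so little of it is left with the latter. The gaps to all probes and RefSeq probes shrank to 0.37 and 0.16 after quantile normalisation, and after normexp background correction the median lay 0.19 under that of all probes and 0.01 over that of RefSeq probes. The split of higher and lower calls moved from 2 and 16 to 7 and 11 under the 75th percentile, 12 and 9 under the median of probes above background on all 8 arrays, 5 and 9 after quantile normalisation, and 7 and 12 in the series table. No probe passed in any comparison after normexp background correction. Leaving out sham replicate 1 lowered the count to 3, sham replicate 2 to 9 and dying replicate 1 to 12, and leaving out dying replicate 2 raised it to 27. In bulk samples such as these, a smaller share of cells that express a gene and less RNA per cell cannot be told apart.

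**Figure D1:**
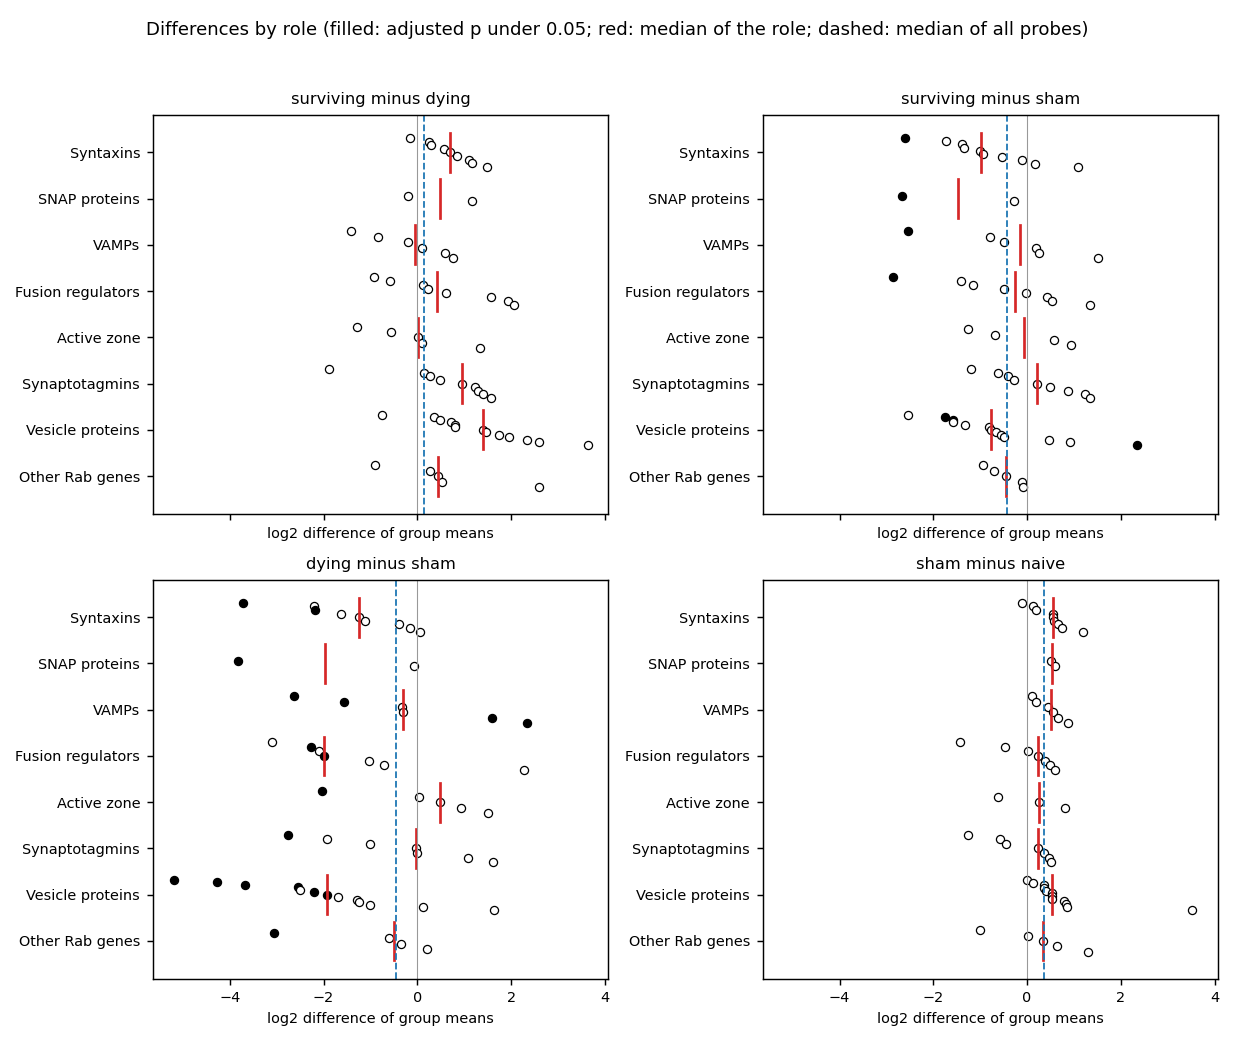
Log2 difference of group means for every gene tested, arranged by role, in the 4 comparisons, with filled points where the adjusted p was under 0.05, a red line at the median of the role and a dashed line at the median of all probes. In dying minus sham the filled points lie to the left for vesicle proteins and on both sides for Vamps; the absolute position of all points in both comparisons with sham moves with the scaling, by up to 1.01 to the right, so that under some scalings the medians of the Vamps, the synaptotagmins and the other Rab genes turn positive in dying minus sham, and those of the Vamps, fusion regulators, active zone genes, vesicle proteins and other Rab genes in surviving minus sham.

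The syntaxins are the plasma membrane and organelle SNAREs that each supply a helix, and in some complexes the receptor, for an incoming vesicle. Stx7, a syntaxin of late endosomes, read 6.86 and 7.27 on the naïve arrays, 8.13 and 7.33 on sham, 5.53 and 4.7 on surviving and 3.68 and 4.35 on dying. Every array from injured rats lay under every naïve and sham array, and the dying arrays lay under the surviving ones. Relative to sham, Stx7 fell by 3.71 ± 0.55 (SE) in dying neurons, 13.1-fold (adjusted p = 0.00377), a call that held with any array left out and under 5 of 6 other scalings. In surviving neurons it fell by 2.61 ± 0.55 (adjusted p = 0.0225), which did not pass with either sham or either surviving array left out, where the difference lay between -3.03 and -2.2, and 3 of 6 other scalings kept it. A dimmer probe for Stx7 gave 0.43 and 0.84 in the same comparisons and did not pass, so the fall belongs to the brighter probe alone.

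Stx12, an endosomal syntaxin, read 6.89 and 7.38 (naïve), 7.84 and 7.54 (sham), 6.84 and 6.52 (surviving) and 4.9 and 6.12 (dying). The dying arrays were the lowest and lay apart from each other by more than 1 unit. Stx12 fell by 2.18 ± 0.55 in dying neurons relative to sham (adjusted p = 0.0178), and a second bright probe gave -2.28, while another, dim probe gave 0.54. That call was lost without sham replicate 1 (-2.03), sham replicate 2 (-2.33) or dying replicate 1 (-1.57), and 1 of 6 other scalings kept it. Stx1a, a syntaxin of the neuronal plasma membrane, read 0.16 and 2.47, 0.89 and 2.15, 2.7 and 2.51, and 1.11 and 1.12 in the same order of groups. Both surviving arrays were above all others, but the naïve and sham pairs spread over more than 1 unit, and the difference of 1.49 ± 0.79 from dying did not pass (adjusted p = 0.321).

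Among the remaining syntaxins, Stx6 (a Golgi and endosome protein), Stx8 and Stx4a (now Stx4) passed the background mark everywhere, with differences from sham of -1.11, 0.05 and -1.63 in dying neurons, none of which passed, while Stx8 did under 2 of 6 other scalings. The 9 syntaxins tested in surviving minus dying had a median of 0.7, with 8 positive and a range from -0.16 to 1.49, and the median stayed positive under all scalings (0.35 to 1.31) and against each dying array alone (1.44 and 0.56). In dying minus sham their median was -1.24, 0.78 under that of all probes, and 2 of 9 passed, both lower, a count under the share of all probes called lower (27.2%, RefSeq probes 30.1%). With dying replicate 1 and 2 alone the gap to all probes was -1.49 and -0.35.

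The SNAP proteins contribute helices from a single protein to the SNARE bundle. Snap25, the neuronal member, read 9.97 and 10.35 on the naïve arrays, 10.99 and 10.49 on sham, 8.89 and 7.25 on surviving and 6.2 and 7.63 on dying. All injured arrays were under all naïve and sham arrays, and surviving replicate 2 lay between the dying arrays, so that surviving and dying overlap. Snap25 fell by 3.83 ± 0.71 in dying neurons against sham, 14.2-fold (adjusted p = 0.00678), and by 2.67 ± 0.71 in surviving neurons, 6.38-fold (adjusted p = 0.0419). The first of these calls was lost only without sham replicate 1 (-3.58) among the fits with an array left out, and 5 of 6 other scalings kept it. The call in surviving neurons did not hold without either naïve array (-2.67), either sham array (-2.42 and -2.92) or either surviving array (-3.5 and -1.85), and 1 of 6 other scalings kept it. Surviving and dying differed by 1.16 ± 0.71 (adjusted p = 0.391), which did not pass, so a difference between the falls was not shown. The paper lists Snap25 by another sequence, which is not among the probes read here, as higher in dying than in surviving neurons. These values thus hold for the probe read here.

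Snap29, which serves membrane fusion in many cells, read 5.29 and 5.51, 5.98 and 5.82, 5.68 and 5.57, and 5.63 and 6.01 in naïve, sham, surviving and dying neurons. Those values span less than 1 unit, and no comparison passed, although 2 of 6 other scalings passed it in dying minus sham, where its sign turned under 5. Snap23, the relative of Snap25 found mostly outside neurons, was above background on naïve replicate 1 (0.02) and dying replicate 2 (-0.24) alone, and was not tested.

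The Vamps are the SNAREs carried by the vesicle, and all 6 were above background on all 8 arrays. Vamp2, the Vamp of synaptic vesicles, read 8.08 and 8.52 on naïve, 8.92 and 8.8 on sham, 6.33 and 6.32 on surviving, and 6.32 and 6.12 on dying. Surviving and dying arrays had nearly the same values, all well under those of the naïve and sham arrays. Vamp2 fell by 2.64 ± 0.44 in dying neurons, 6.22-fold (adjusted p = 0.00505), and by 2.54 ± 0.44 in surviving neurons, 5.8-fold (adjusted p = 0.0141). In dying neurons the call was lost without sham replicate 1 (-2.58). For surviving neurons it was lost without either sham array (-2.48 and -2.59) or either surviving array (-2.54 and -2.53). Each call was kept under 5 of 6 other scalings. A second bright probe for Vamp2 differed by -1.44 and -0.9, in the same direction but without passing, and the dimmest was never above background.

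Vamp4, a Vamp of the Golgi and endosomes, read 4.9 and 5.53, 5.51 and 5.14, 4.69 and 4.36, and 3.75 and 3.77. Dying arrays were lowest, surviving arrays next, and neither pair overlapped with sham. Its fall of 1.56 ± 0.47 in dying neurons (adjusted p = 0.032) was seen on 2 dimmer probes as well (-2.97 and -2.55, adjusted p = 0.00725 and 0.0125), and the dimmest of them fell by 2.15 ± 0.58 in surviving neurons too (adjusted p = 0.0428). On the brightest probe no other scaling kept that call, and it was lost without either sham array (-1.38 and -1.75), either surviving array (-1.56) or dying replicate 1 (-1.55).

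Vamp5 and Vamp8 were the members that rose in dying neurons, though neither passed with array weights. Vamp5, known best from muscle and endothelium, read 1.58 and 1.84 on naïve, 1.5 and 2.82 on sham, 4.14 and 3.19 on surviving, and 4.58 and 4.42 on dying. Injured arrays lay above all naïve and sham arrays, with dying above surviving. Vamp5 rose by 2.34 ± 0.59 in dying neurons against sham, 5.06-fold (adjusted p = 0.0183), a call kept under 5 of 6 other scalings and lost without sham replicate 1 (1.68) or dying replicate 1 (2.26). In surviving neurons its difference of 1.51 ± 0.59 did not pass (adjusted p = 0.114), though it did under 4 of 6 other scalings. Vamp8, a Vamp of endosomes and secretory granules of non-neuronal cells, read 3.23 and 4.02, 3.89 and 3.73, 4.34 and 3.64, and 5.63 and 5.19. Only the dying arrays were higher, by more than 1 unit over every sham and naïve array, and surviving and sham arrays overlapped. Vamp8 rose by 1.6 ± 0.51 in dying neurons, 3.02-fold (adjusted p = 0.0401), a call kept under 5 of 6 other scalings. It was lost without either sham array (1.68 and 1.52), either surviving array (1.6) or dying replicate 1 (1.37), with replicate number in the fit, with only the 2 groups in it, and without a filter on dim probes.

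Markers of microglia and macrophages were also brightest on the dying arrays. The summed scaled signal of 11 such genes was 131 and 258 on naïve, 280 and 261 on sham, 488 and 498 on surviving, and 2430 and 1110 on dying, with C1qb the brightest on dying arrays. By the same test 6 of 9 of them rose in dying neurons, beside 13.6% of all probes and 12.2% of RefSeq probes called higher. Endothelial markers, 8 genes, summed to 60.7 and 87.9, 100 and 79.1, 60.2 and 58, and 262 and 127, with Vwf the brightest on the dying arrays, and 2 of 6 tested rose in dying neurons. The part of such cells in the values of Vamp5 and Vamp8 was not tested.

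Vamp1 and Vamp3 did not pass in any comparison under the scaling used. Vamp3, a Vamp of recycling endosomes in most cells, kept between 7.66 and 8.67 on all 8 arrays, and Vamp1 between 1.96 and 4.07. A dimmer Vamp1 probe gave -0.6 in surviving minus sham, against 0.26, and -2.9 in dying minus sham, against -0.33, without passing. As a group the Vamps therefore had members on either side, with a median of -0.05 in surviving minus dying and -0.31 in dying minus sham, signs that turned under at least 1 other scaling in each case.

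**Figure D2:**
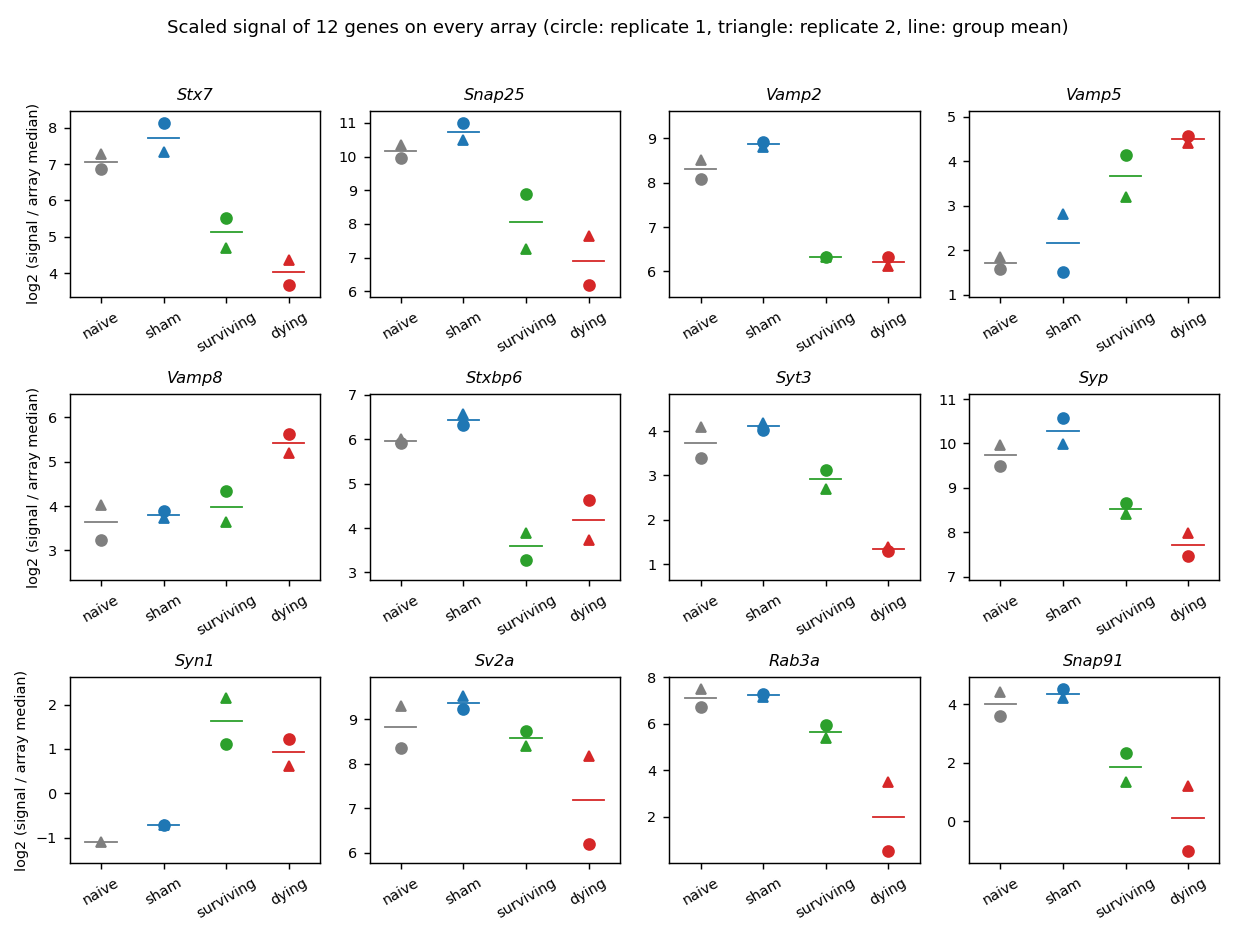
Log2 of signal over the array median for 12 genes on all 8 arrays, by group, with circles for replicate 1, triangles for replicate 2 and a line at the group mean; each panel has its own axis. Vamp2 on the surviving arrays (6.33 and 6.32) sits as low as on the dying ones, and Rab3a and Snap91 are lowest on dying replicate 1 (0.55 and -1.02). Vamp5, Vamp8 and Syn1 run the other way, though Syn1 did not pass in dying neurons and no sham array showed it above background. Of the differences from sham named here none changed sign under another scaling in dying neurons, but that of Syn1 came down to 0.01. The difference of Vamp8 in surviving neurons (0.18) changed sign under 1 of 6.

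Promoters are shown for the genes that moved in opposite directions, to let their sequences be compared. The RefSeq promoter table (build GRCr8) holds 60 of the 76 genes among 33469 promoters of 300 bases, each running from upstream of the transcription start into the transcript, 5′ to 3′. Capitals mark any match, on either strand, to the cAMP response element TGACGTCA, its core TGACG (which lies inside the full element), the GC box GGGCGG, or TATAAA. The GC box occurred in 42 of the 60 promoters (70%) against 33.1% of all promoters in the table, and TATAAA in 2 (3.33%) against 14.2%. TGACG was found in 16 (26.7%) against 21.2%, and the full TGACGTCA in 2 (3.33%) against 1.83%. All promoters of the table were counted whatever the kind of gene, so no difference here is shown to be particular to these genes. Stx7 and Vamp2, which fell, have 1 and 3 GC boxes. Vamp5 has 2, which overlap, and Vamp8 has 1. The promoters of Vamp5 and Vamp8 lie 12095 bases apart on chromosome 4, on the same strand. A match is a run of letters and says nothing about binding.
Stx7 (chr1:23056416-23056715, minus strand): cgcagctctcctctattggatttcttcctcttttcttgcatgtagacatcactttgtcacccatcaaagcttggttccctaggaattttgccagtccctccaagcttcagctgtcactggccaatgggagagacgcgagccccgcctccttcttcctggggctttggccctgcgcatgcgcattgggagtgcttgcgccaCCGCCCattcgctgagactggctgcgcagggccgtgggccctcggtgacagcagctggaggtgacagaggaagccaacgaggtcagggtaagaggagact
Vamp2 (chr10:54292539-54292838, plus strand): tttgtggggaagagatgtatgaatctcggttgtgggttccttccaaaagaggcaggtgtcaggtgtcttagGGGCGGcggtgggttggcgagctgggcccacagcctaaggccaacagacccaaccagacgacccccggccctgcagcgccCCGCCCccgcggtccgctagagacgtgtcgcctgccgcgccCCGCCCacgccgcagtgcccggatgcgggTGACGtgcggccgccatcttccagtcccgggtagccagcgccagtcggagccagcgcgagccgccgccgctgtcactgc
Vamp5 (chr4:105993198-105993497, minus strand): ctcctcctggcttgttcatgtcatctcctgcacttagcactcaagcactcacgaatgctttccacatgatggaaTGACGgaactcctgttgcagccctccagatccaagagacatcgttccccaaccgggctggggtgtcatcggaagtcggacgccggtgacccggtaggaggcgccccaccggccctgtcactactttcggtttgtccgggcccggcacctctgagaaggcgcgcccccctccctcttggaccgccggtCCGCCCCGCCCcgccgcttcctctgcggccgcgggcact
Vamp8 (chr4:106005593-106005892, minus strand): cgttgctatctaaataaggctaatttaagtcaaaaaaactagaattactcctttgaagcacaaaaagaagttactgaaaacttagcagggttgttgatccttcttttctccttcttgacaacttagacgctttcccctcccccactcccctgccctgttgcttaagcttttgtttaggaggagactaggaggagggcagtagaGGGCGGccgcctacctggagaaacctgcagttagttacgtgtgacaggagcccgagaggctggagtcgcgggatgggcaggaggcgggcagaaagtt

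Fusion regulators bind syntaxins or the assembled SNARE bundle. Stxbp6 (amisyn), which can take the place of a Vamp in the bundle, read 5.92 and 6 on naïve, 6.32 and 6.56 on sham, 3.29 and 3.89 on surviving, and 4.63 and 3.72 on dying. Injured arrays were all at least 1 unit under the others, with surviving and dying overlapping. Stxbp6 fell by 2.85 ± 0.51 in surviving neurons, 7.2-fold (adjusted p = 0.0152), and by 2.26 ± 0.51 in dying neurons, 4.79-fold (adjusted p = 0.0124). Without either sham array neither call held (-2.97 and -2.73 in surviving, -2.38 and -2.14 in dying neurons), nor did the former without either surviving array (-2.54 and -3.15). Of 6 other scalings, 4 kept the call in surviving neurons and 3 that in dying neurons.

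Stxbp3, which pairs with syntaxins outside the synapse, read 5.65 and 6.17, 5.84 and 6.04, 4.33 and 4.76, and 4.36 and 3.53. It fell by 2 ± 0.51 in dying neurons (adjusted p = 0.0179), and the surviving arrays lay at the level of dying replicate 1. The call was lost without either sham array (-2.09 and -1.9), and 2 of 6 other scalings kept it.

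Stxbp5 and Stxbp5l (tomosyns), which hold syntaxins in complexes without Vamp, were split within the dying pair. Stxbp5 read 3.3 and 4.53, 4.59 and 4.01, 3.38 and 2.89, then -1.12 and 3.51, and Stxbp5l ended with -3.17 and 2.65 after 1.67 and 1.95 on the surviving arrays. Dying replicate 1 was far under every other array while dying replicate 2 was at the level of the surviving arrays, and neither gene passed any comparison. Cplx1, a complexin, read 1.32 and -0.54, -1.78 and -0.32, -0.28 and 0.88, and 0.94 and 1.52, with no sham array above background. Dying neurons were at least 2.74-fold over the sham background level, but the test gave an adjusted p of 0.0522, and 4 of 6 other scalings took it past the threshold. Cplx1 entered that test by its dying arrays alone, so these outcomes cannot decide whether it rose. Cplx2, the complexin of most pyramidal neurons, read 2.21 and 3.67, 3.16 and 3.18, 4.13 and 3.3, and 1.12 and 3.14. Both surviving arrays were above both sham and both dying arrays, dying replicate 1 was the lowest value, and the difference of 1.58 ± 0.79 did not pass (adjusted p = 0.295). Over all 7 fusion regulators tested in dying minus sham the median was -2, which is 1.54 under all probes (1.53 and 0.28 under them with each dying array alone), and 2 passed as lower, near the share of all probes (27.2%).

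The active zone and priming genes were mostly dim: 1 of 8 was above background on all 8 arrays, Unc13d, a Munc13 of blood cells and secretory cells. For dying minus sham the 5 tested had a median of 0.48, with 4 positive, 0.94 over that of all probes. With dying replicate 1 and 2 alone that gap was 1.61 and 0.15. Unc13d read 2.07 and 2.98, 3.54 and 3.11, 1.96 and 2.19, and 4.75 and 1.98, so that dying replicate 1 was the highest value and dying replicate 2 among the lowest. Unc13a (Munc13-1), the main priming factor of excitatory synapses, read 0.19 and 0.98, -0.44 and 0.38, 0.35 and 0.76, and 1.3 and -0.4. Its groups overlapped in every comparison. Rims2, an active zone scaffold, read 1 and 0.86, 1.42 and 0.97, 0.56 and 0.44, and -1.72 and 0.04. Both dying arrays were under both surviving arrays, and those under both sham arrays. Rims2 fell by 2.03 ± 0.63 in dying neurons (adjusted p = 0.0346), where 1 of the 2 arrays was not above background, so that the size of the fall is uncertain. Leaving out either sham array (-1.8 and -2.26), either surviving array (-2.03) or dying replicate 1 (-1.15) ended that call, and 1 of 6 other scalings kept it.

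Rims1, in contrast, was above background on no naïve or sham array (-1.42 and -1.44, -0.97 and -0.87) but on both surviving (-0.37 and 0.4) and both dying arrays (-0.06 and 0.06). Surviving neurons stood at least 1.18-fold and dying neurons at least 1.17-fold over the sham background level. Neither difference passed (adjusted p = 0.189 and 0.143), although 3 of 6 other scalings passed each. Rims1 entered both tests by its injured arrays alone, so these outcomes cannot decide whether it rose. The difference between surviving and dying neurons was 0.02 ± 0.47.

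Synaptotagmins are the calcium sensors of fusion, with 9 of 14 genes tested in surviving minus dying. Syt3, a sensor with high calcium affinity, read 3.4 and 4.09 on naïve, 4.03 and 4.19 on sham, 3.13 and 2.7 on surviving, and 1.29 and 1.39 on dying. Dying arrays were close together and more than 1 unit under all others, with surviving arrays in between. Syt3 fell by 2.77 ± 0.47 in dying neurons, 6.83-fold (adjusted p = 0.00529), a call lost without sham replicate 1 (-2.85) and kept under 5 of 6 other scalings. Surviving neurons exceeded dying neurons by 1.57 ± 0.47 in the same gene, with an unadjusted p of 0.0108 and an adjusted p of 0.149. Syt1, the sensor for fast release in forebrain neurons, read 4.15 and 5.02, 3.21 and 5.07, 4.5 and 4.22, and 2.08 and 4.18. Only dying replicate 1 was low, and the sham arrays were nearly 2 units apart. The brightest Syt1 probe did not pass, whereas its 2 dimmer probes fell in dying neurons by 3.78 ± 0.94 and 2.7 ± 0.72 (adjusted p = 0.0173 and 0.0218), each with 1 dying array not above background and a size that is therefore uncertain.

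Syt2, the fast sensor of hindbrain neurons and some interneurons, ran the other way, at 1.93 and 2.82, 1.74 and 0.52, 1.28 and 0.43, and 3.53 and 1.96. Dying replicate 1 held the highest value and both dying arrays were above both surviving arrays. The difference was -1.89 ± 0.72 in surviving minus dying, with an unadjusted p of 0.0317 and an adjusted p of 0.204. Beside it, the summed signal of 9 interneuron markers was 1730 and 2380, 2080 and 2330, 2470 and 2590, and 7090 and 2020, with Cck the brightest on every array, while in dying minus sham 0 of the 9 passed as higher and 2 as lower by limma, with a median of -0.29, and the part of interneurons in the Syt2 values was not tested. Syt11 read 1.9 and 2.2, 2.57 and 2, 1.87 and 1.49, and -0.69 and 1.44, and its difference of -1.92 ± 0.71 in dying minus sham did not pass (adjusted p = 0.0608). Syt5, which was near 10 on every array (9.13 to 10.6), and Syt12, whose dying arrays read 0.99 and 5.74, passed nothing either under the scaling used, though Syt5 passed as higher in surviving minus sham under 3 of 6 others. Syt4, induced by activity in many neurons, was above background on sham replicate 2 (0.42) and dying replicate 2 (1.15) alone. The 9 synaptotagmins had a median of 0.96 in surviving minus dying (0.57 to 1.01 under the other scalings), which rested on dying replicate 1: it was 1.62 against that array alone and 0.09 against the other, where all probes had 0.19. For dying minus sham the median of the 7 tested was -0.04, 0.42 over that of all probes. With dying replicate 1 and 2 alone that gap was -1.78 and 0.55. Only 1 of the 7 passed, as lower, beside 27.2% of all probes.

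Vesicle proteins were tested with 13 genes, a group that here also holds the Rab3 regulators Rab3gap2, Rab3il1 and Rab3ip and the clathrin adaptor Snap91. In surviving minus dying 12 were positive, the groups did not overlap for 11 that read higher (30.4% of all probes, 37.0% of RefSeq probes), and the median was 1.39, which is 1.24 over that of all probes and between 0.94 and 1.26 over it under the other scalings. Most of that came from dying replicate 1: against each dying array alone the median was 2.17 and 0.55, which is 2.19 and 0.36 over all probes, and with the second array the syntaxins stood level (0.56). In dying minus sham 6 of 13 passed, all lower (27.2% of all probes, 30.1% of RefSeq probes), with a median of -1.92, 1.46 under that of all probes (1.28 to 1.46 under it by scaling), and -2.8 and -1.21 with each dying array alone. The gap to all probes was -2.53 with dying replicate 1 alone and -0.7 with dying replicate 2 alone. In surviving minus sham the median was -0.77, and it turned positive under 5 of 6 other scalings.

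Rab3a, the GTPase that tethers vesicles to Rims, read 6.71 and 7.48 on naïve, 7.29 and 7.16 on sham, 5.94 and 5.37 on surviving, and 0.55 and 3.49 on dying. Surviving arrays lay more than 1 unit under sham and dying arrays at least 1.8 units under surviving, with dying replicate 1 lowest of all. Rab3a fell by 5.2 ± 0.89 in dying neurons, 36.9-fold (adjusted p = 0.00525), the largest fall among these genes, passing with any array left out and under 5 of 6 other scalings. With an array left out that fall lay between -6.68 and -3.73. Rab3a was also the gene with the largest excess in surviving over dying neurons, 3.63 ± 0.89 or 12.4-fold, with an unadjusted p of 0.00352 and an adjusted p of 0.131. That difference was 2.16 with dying replicate 1 left out and 5.11, past the threshold, with dying replicate 2 left out. Surviving minus sham was -1.57 ± 0.89 and did not pass (adjusted p = 0.237).

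Rab3d, a Rab3 of secretory granules, read 2.83 and 2.96, 3.99 and 3.39, 2.26 and 2.46, and -0.66 and 0.7. Sham arrays were highest, then naïve, surviving and dying arrays, with no overlap between any of the groups. It fell by 3.67 ± 0.57 in dying neurons, 12.7-fold (adjusted p = 0.00417), with any array left out and under 5 of 6 other scalings. Its second probe, at 1.36 and 0.82, 0.77 and 1.34, 2.98 and 2.48, and 3.4 and 2.25, rose by 1.77 ± 0.56 (adjusted p = 0.0387), so the probes of this gene passed in opposite directions and the mean over them passed in neither. Rab3c read 4.47 and 4.99, 4.8 and 4.67, 3.2 and 3.12, and 2.74 and 2.89. All groups of injured neurons lay under naïve and sham, dying slightly under surviving. Rab3c fell by 1.92 ± 0.45 in dying neurons (adjusted p = 0.0139) and by 1.57 ± 0.45 in surviving neurons (adjusted p = 0.0496). The first call was lost without either sham array (-1.85 and -1.98) and kept under 5 of 6 other scalings. The second was lost without either naïve (-1.57), sham (-1.51 and -1.64) or surviving array (-1.61 and -1.53) and under all 6 other scalings. Rab3b, at 3.17 and 4.97, 4.41 and 4.53, 3.82 and 3.81, and 5.28 and 3.88, passed nothing, and its dimmer probe gave -1.64 in dying minus sham against 0.11, also without passing (adjusted p = 0.0632).

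Syp (synaptophysin) read 9.49 and 9.97 on naïve, 10.57 and 9.98 on sham, 8.65 and 8.41 on surviving, and 7.47 and 7.98 on dying. The groups stepped down from sham over surviving to dying without overlap. Syp fell by 2.55 ± 0.49 in dying neurons, 5.85-fold (adjusted p = 0.00731), and by 1.74 ± 0.49 in surviving neurons, 3.34-fold (adjusted p = 0.0477). Only the fit without sham replicate 1 (-2.25) lost the former call among those with an array left out, and 5 of 6 other scalings kept it. The latter was lost without either naïve (-1.74), sham (-1.44 and -2.03) or surviving array (-1.86 and -1.62) and under all 6 other scalings. Between surviving and dying the difference was 0.81 ± 0.49 (adjusted p = 0.381).

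Snap91 (AP180), the clathrin adaptor that retrieves vesicle membrane, read 3.59 and 4.43, 4.52 and 4.22, 2.35 and 1.33, and -1.02 and 1.2. Dying arrays were lowest and surviving arrays in between, with no overlap of either with sham. Snap91 fell by 4.28 ± 0.78 in dying neurons, 19.4-fold (adjusted p = 0.00638), a call lost without sham replicate 1 (-4.13) and kept under 5 of 6 other scalings. In surviving neurons its difference of -2.53 ± 0.78 did not pass (adjusted p = 0.0603), though it did under 1 of 6 other scalings. Sv2a, the vesicle glycoprotein that binds levetiracetam, read 8.36 and 9.31, 9.24 and 9.52, 8.75 and 8.39, and 6.2 and 8.17. The low value of dying replicate 1 made most of the difference. Sv2a fell by 2.2 ± 0.7 in dying neurons (adjusted p = 0.0393), and the call was lost without either sham array (-2.34 and -2.06), either surviving array (-2.2) or dying replicate 1 (-1.21), and was kept under 1 of 6 other scalings. Sv2b read 3.1 and 9.01, 9.41 and 9.73, 9.52 and 8.52, and 6.41 and 7.73. Dying arrays were again under surviving and sham arrays, but naïve replicate 1 lay about 6 units under naïve replicate 2, and the wide spread left -2.5 ± 1.6 in dying minus sham short of the threshold (adjusted p = 0.23). A dimmer Sv2b probe fell by 4.34 ± 0.92 (adjusted p = 0.0101), at least 7.61-fold since no dying array was above background. That probe entered the test by its sham arrays alone. Sv2c, the Sv2 of few brain regions, was above background on sham replicate 1 (0.61) and dying replicate 2 (-1.98) alone and was not tested.

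Syn1 (synapsin 1) was the vesicle protein that passed as higher. It read -1.1 on naïve replicate 2 (naïve replicate 1 has no value), -0.72 and -0.71 on sham, 1.12 and 2.15 on surviving, and 1.23 and 0.62 on dying. The sham and naïve arrays were not above background and all injured arrays were. Syn1 rose in surviving neurons by 2.35 ± 0.56, at least 3.63-fold over the sham background level (adjusted p = 0.0353), and the difference in dying neurons, 1.64 ± 0.56 or at least 2.22-fold, did not pass (adjusted p = 0.0525). Without either sham array (2.34 and 2.35) or either surviving array (2.86 and 1.83) the rise did not pass, and 3 of 6 other scalings kept it. It was also lost with non-uniform spots kept and with replicate number in the fit, and with a filter on all 4 arrays the gene was not tested, since it entered the test by its surviving arrays alone. Surviving and dying arrays overlapped. Syn2, at 4.18 and 5.58, 5.55 and 5.86, 6.7 and 5.62, and 3.99 and 5.39, had both surviving arrays over both dying arrays without passing (1.47 ± 0.71, adjusted p = 0.286). The promoters of Rab3a, Syp and Syn1 are given for the same comparison as those of the SNARE genes, with the same capitals. Syp has 4 matches to the GC box, Rab3a 2 and 1 to TGACG, and Syn1 the full TGACGTCA and 1 GC box.
Rab3a (chr16:18722224-18722523, minus strand): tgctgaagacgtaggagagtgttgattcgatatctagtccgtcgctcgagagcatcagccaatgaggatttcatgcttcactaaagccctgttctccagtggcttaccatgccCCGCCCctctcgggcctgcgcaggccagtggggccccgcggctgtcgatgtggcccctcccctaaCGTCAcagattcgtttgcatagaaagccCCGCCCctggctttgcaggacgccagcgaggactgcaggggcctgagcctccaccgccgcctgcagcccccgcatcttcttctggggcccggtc
Syp (chrX:17536400-17536699, minus strand): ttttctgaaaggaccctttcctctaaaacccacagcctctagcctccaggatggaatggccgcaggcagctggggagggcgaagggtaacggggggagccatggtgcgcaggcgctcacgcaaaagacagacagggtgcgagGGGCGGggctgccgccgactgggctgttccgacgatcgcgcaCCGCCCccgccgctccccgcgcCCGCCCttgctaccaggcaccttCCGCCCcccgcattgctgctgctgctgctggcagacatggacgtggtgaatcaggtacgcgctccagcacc
Syn1 (chrX:3725495-3725794, plus strand): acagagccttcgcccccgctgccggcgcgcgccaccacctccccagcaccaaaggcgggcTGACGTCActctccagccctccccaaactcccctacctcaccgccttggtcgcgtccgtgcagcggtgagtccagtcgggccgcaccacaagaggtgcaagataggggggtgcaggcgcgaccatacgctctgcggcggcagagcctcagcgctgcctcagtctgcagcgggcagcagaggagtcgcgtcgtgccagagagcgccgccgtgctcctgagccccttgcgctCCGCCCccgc

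The Rab3 regulators passed no comparison. Rab3gap2 (6.12 and 6.5, 6.72 and 6.6, 5.9 and 5.89, 5.17 and 5.65) and Rab3ip (3.75 and 4.39, 4.94 and 4.27, 4.32 and 3.91, 3 and 3.63) had dying arrays under all surviving and sham arrays but passed nothing, with adjusted p of 0.0568 and 0.079 in dying minus sham. Rab3il1 had surviving arrays of 3.34 and 3.02 and dying arrays of -1.76 and 2.92, of which 1 was not above background. Its difference of 2.6 ± 1.25 in surviving minus dying did not pass (adjusted p = 0.283).

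Of the other Rab genes, Rab33a, a Rab of Golgi-derived vesicles in brain, resembled Rab3a. Its values were 6.46 and 7.38, 7.31 and 6.59, 6.68 and 6.31, and 2.95 and 4.85, with surviving neurons at the level of sham and dying neurons at least 1.4 units lower. Rab33a fell by 3.05 ± 0.71 in dying neurons, 8.28-fold (adjusted p = 0.0137), lost without either sham array (-2.69 and -3.41) and kept under 3 of 6 other scalings. Surviving minus dying was 2.59 ± 0.71 with an unadjusted p of 0.00655 and an adjusted p of 0.14. It was 1.64 without dying replicate 1 and 3.54, past the threshold, without dying replicate 2. Rab31, a Rab of endosomes that glial cells also express, read 6.95 and 7.33, 7.55 and 7.43, 6.92 and 6.68, and 7.95 and 7.45. Dying arrays were here above surviving arrays, by 0.9 ± 0.46 on that probe (adjusted p = 0.306), whereas a dim second probe had the opposite sign. On that dim probe surviving minus dying was 3.15 ± 0.75, at least 3.45-fold (adjusted p = 0.128). It entered the test by its surviving arrays alone. Rab31 did not pass in dying minus sham (0.2 ± 0.46), but did under 3 of 6 other scalings. Rab34, Rab35 and Rab38 passed no comparison.

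**Figure D3:**
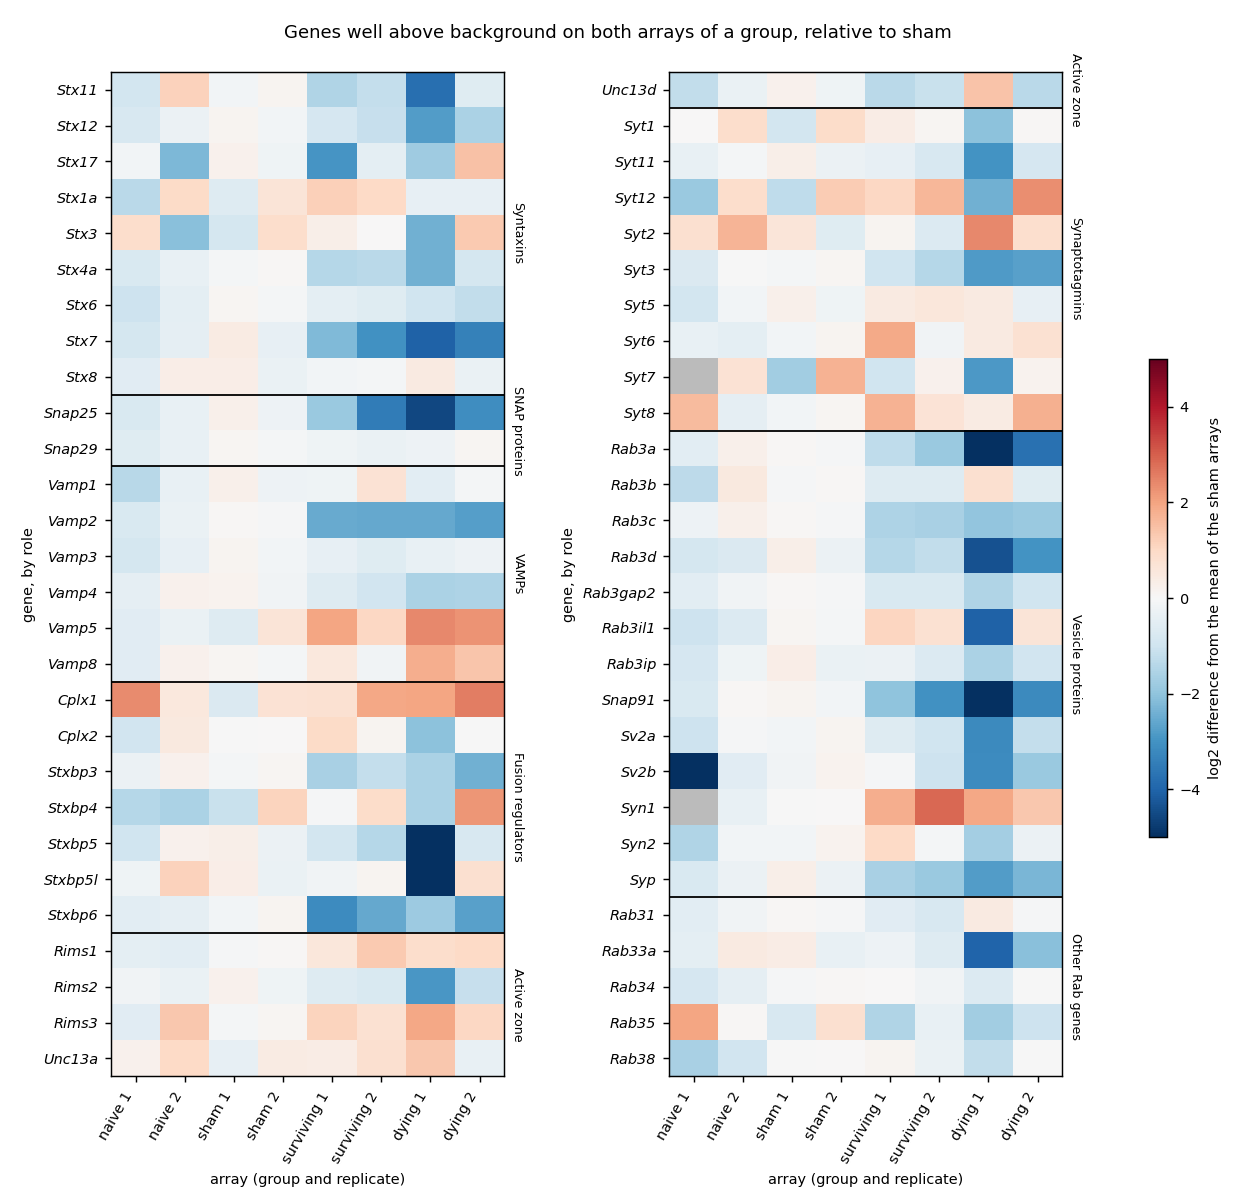
Log2 signal of 56 of the 58 genes that passed the background mark in both replicates of some group, minus the mean of the sham arrays, for all 8 arrays, by role (red higher, blue lower, grey no value; the colour scale ends at 5 units). Blue fields gather in the dying columns among vesicle proteins, syntaxins and fusion regulators, and dying replicate 1 is darker than dying replicate 2; under 5 of 6 other scalings the injured columns shift toward red by up to about 1 unit, which turns pale blue fields pale red, and under scaling by the median of RefSeq probes the surviving columns shift toward blue (-0.19).

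The dying arrays did not carry these differences equally. Against the mean of the surviving arrays, 21 of 47 genes that were above background on all 4 arrays of these groups were over 1 unit lower on dying replicate 1, and 8 on dying replicate 2, shares of 44.7% and 17% beside 24.2% and 14% of RefSeq probes. Median differences of the 47 genes were 0.77 and 0.37, against 0.09 and 0.31 over RefSeq probes. With dying replicate 2 left out, 12 of 58 genes passed in surviving minus dying (11 higher, 1 lower), beside 5408 of 28210 probes (2947 higher, 2461 lower), so that the count itself is near that of all probes, and among the genes were Rab3a, Rab33a, Rab3d, Rims2, Snap91, Sv2a and Syt11. With dying replicate 1 left out, the median difference of the genes tested was 0.18, against 0.81 with dying replicate 2 left out. A lone dying array is then assumed to vary as the other groups do. Array medians (19.22 and 52.64), probes above background (24064 and 27997) and the summed microglial signal (2430 and 1110) differed between the dying arrays as well, and their part in this split was not tested.

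**Figure D4:**
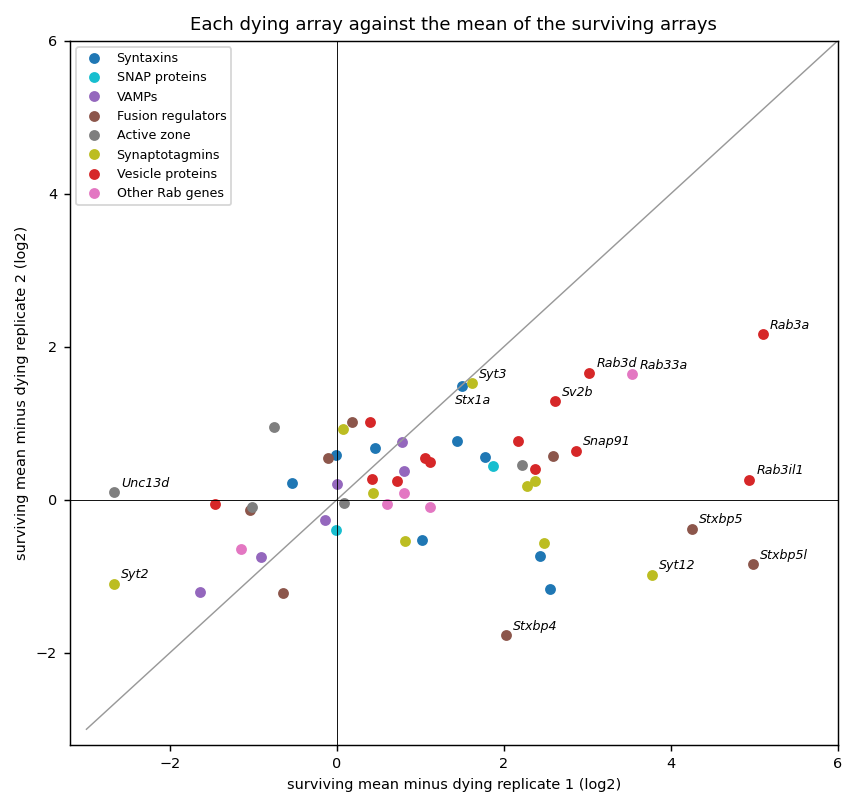
Mean of the surviving arrays minus dying replicate 1 (horizontal) and minus dying replicate 2 (vertical), in log2 units, for each gene tested, coloured by role; the grey line marks equality. Most points lie right of the line: Rab3a is high on both axes, Stxbp5, Stxbp5l, Rab3il1 and Syt12 are high for replicate 1 alone, and Syt2 and Vamp8 (the leftmost purple point) are on the negative side of both, a side that Vamp8 leaves under 1 other scaling.

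Sham against naïve asks what the operation alone does. Of 51 genes tested 42 were higher in sham, with a median of 0.45, beside 0.37 for all probes and 0.41 for RefSeq probes. The median of the genes was 0.12 without naïve replicate 1 and 0.76 without naïve replicate 2. By limma 0 passed, as did 0 of 20679 probes (0% in either direction), and at an unadjusted p under 0.05 there were 0 genes beside 789 probes (3.82%). Groups did not overlap for 21 genes higher and 1 lower, beside 39.0% and 5.12% of all probes. The median turned close to 0 (0.03) with scaling by probes above background on all 8 arrays. Sv2b gave the largest difference, 3.51 ± 1.6 (adjusted p = 0.93). It read 3.1 on naïve replicate 1 and 9.01 on naïve replicate 2, and most of that difference came from naïve replicate 1. Among those higher in sham Rab38 (1.29), Stx17 (1.19) and Vamp1 (0.88) came next. On the lower side were Cplx1 (-1.44), Syt2 (-1.25), whose groups did not overlap, and Rab35 (-1.01), and none of these passed.

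Other genes of the vesicle cycle, drawn from a list of endocytic, priming and trafficking genes (57 of 68 names had a probe), were tested alike. In dying minus sham 25 of 50 tested passed as lower and 3 as higher, beside 27.2% and 13.6% of all probes and 30.1% and 12.2% of RefSeq probes, with a median of -1.44, 0.98 under all probes. In surviving minus sham 3 passed as lower and 1 as higher of 49, both under the shares of all probes (10.5% and 5.78%), and in surviving minus dying 0 of 49 passed, with a median of 0.68. The clathrin heavy chain Cltc read 10.27 and 10.55, 11.17 and 10.99, 9.37 and 9.46, and 8.87 and 8.61, and fell by 2.34 ± 0.44 in dying neurons (adjusted p = 0.00698). Sh3gl2 (endophilin A1), at 0.64 and 1.1, 1.47 and 1.16, 1.17 and 1, and -3.5 and -1.19, was near the sham level in surviving neurons and fell by 3.66 ± 0.73 in dying neurons (adjusted p = 0.00847), with 1 dying array not above background. Synpr (synaptoporin), a relative of Syp enriched in mossy fibre terminals, fell in dying (-4.29 ± 0.74) and surviving neurons (-3.02 ± 0.74, adjusted p = 0.00534 and 0.0331). Scamp1, a carrier protein of recycling vesicles, did so too (-2.88 and -1.87). Ap2a1, a subunit of the endocytic adaptor AP-2, rose in dying (at least 4.45-fold) and surviving neurons (at least 2.66-fold), and Gosr1, a Golgi SNARE, rose in dying neurons (at least 6.31-fold), both against sham arrays that were not above background, so that these genes entered the test by their injured arrays alone. With scaling by probes above background on all 8 arrays, the split for dying minus sham was 8 higher and 9 lower of 50 tested. Of 25628 probes, 8191 were then called higher and 3808 lower.

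Markers of cell types give the setting for all of these values. A list for pyramidal neurons, 11 genes led by Nrgn, summed to 10300 and 14400 on naïve and 19600 and 16800 on sham arrays. Its sums were 10300 and 10700 on surviving and 6450 and 5990 on dying arrays. The list also holds genes of neurons in general, such as Eno2 and Tubb3. In dying neurons 3 of 9 fell (Eno2, Nrgn and Tubb3), a count near the share of all probes called lower (27.2%, RefSeq probes 30.1%). The median of the 9 in dying minus sham, -2.16, lay near that of the vesicle proteins (-1.92). With dying replicate 1 and 2 alone it was -2.95 and -0.92, and that of the vesicle proteins was -2.8 and -1.21. Oligodendrocyte markers, 9 genes led by Plp on naïve and sham arrays, summed to 1710 and 1490, 2420 and 2190, 429 and 483, and 1180 and 719, so that signal of these markers was on all arrays and lowest in surviving neurons. Astrocyte markers, 9 genes led by Slc1a3, summed to 1170 and 1510, 1980 and 1370, 827 and 903, and 1520 and 795. The part of these cells in the values above was not tested.

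**Figure D5:**
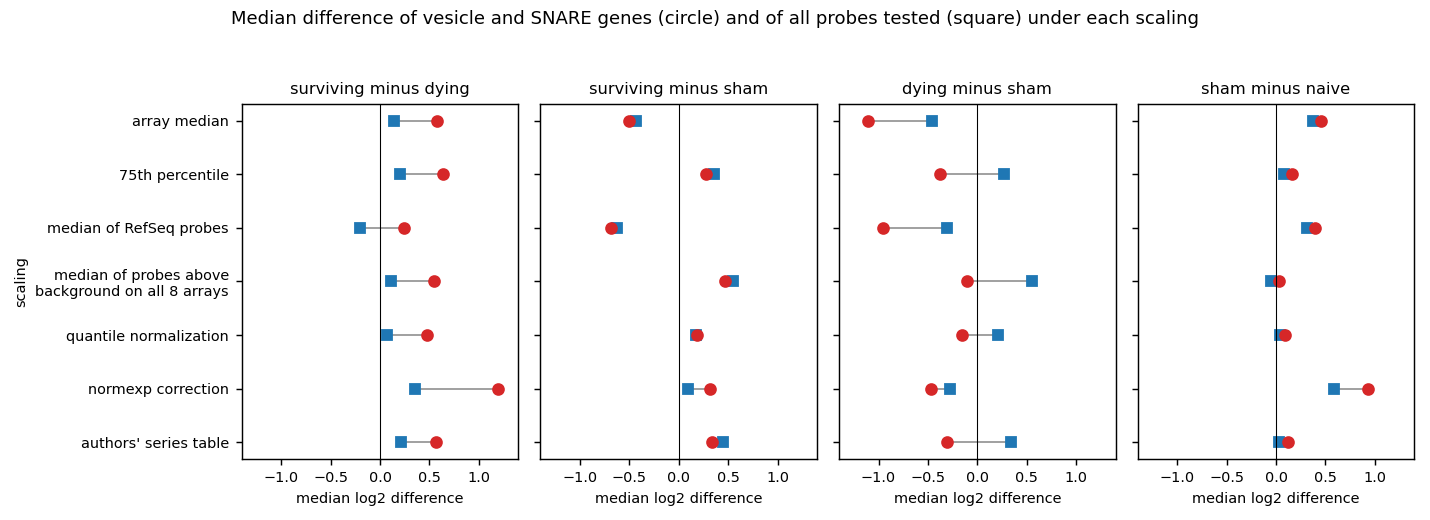
Median log2 difference of the vesicle and SNARE genes (circles) and of all probes tested (squares) in the 4 comparisons under the scaling used and 6 others. The circles stay right of the squares in surviving minus dying and left of them in dying minus sham under all 7. In surviving minus sham they lie between -0.11 and 0.23 relative to the squares and cross 0, from -0.69 to 0.47.

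Probes of a single gene did not always move alike. Among genes with at least 2 probes tested, the probes differed in sign for 4 of 11 in surviving minus dying, 6 of 12 in surviving minus sham, 5 of 11 in dying minus sham and 5 of 12 in sham minus naïve. Which transcripts or regions such probes read was not tested. The genes whose probes passed with the same sign on at least 2 probes in dying minus sham were Stx12, Syt1 and Vamp4, all lower.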

How the data were processed

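RNA of laser-captured CA3 neurons was measured on Agilent rat arrays, with 2 arrays for each of 4 groups. The deposited scanner files give intensity values (background-subtracted processed signal, mean signal and local background), which the authors obtained from Agilent Feature Extraction 9.1.3.1, and other columns that are marks of 0 or 1 per spot (well above background, non-uniform, saturated). The deposited series table holds a signal per probe, and the authors divided it by a constant for each array. Groups follow the labels.

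Processed signals were divided by the median of the array's probes, floored at 0.01 and put on a log2 scale (R 4.3.3, data.table version 1.17.8). Non-uniform spots were left out, and a gene was tested in a comparison where its probe passed the scanner's background mark in both replicates of either group. Differences were tested with limma 3.58.1 in a single fit over the 4 groups, with p-values adjusted over all probes tested in that comparison and a threshold of 0.05. Standard errors are those of limma. On simulated data the fit called every change put in, each of 2 log2 units, and a few unchanged probes. Smaller changes were not simulated. On the arrays larger differences could fail to pass, as for Rab3a in surviving minus dying (3.63). The simulation thus gives no size above which a difference passes here. Folds against a group without an array above background are lower bounds against the background level.

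The comparisons were surviving with dying, surviving with sham, dying with sham, and sham with naïve. The alternatives were 6 other scalings (75th percentile, median of RefSeq probes, median of probes above background on all 8 arrays, quantile normalisation, normexp with an offset of 50, and the table of the series), other filters, floor and probe choices, a term for replicate number, fits of only the 2 groups compared, array weights, and leaving out each array.

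The genes and the lists of other genes were chosen with earlier results of these data known. Genes named with values come from a list of 26 of the neuronal release machinery, every member past the threshold, and the 5 members with the largest difference in each direction whose groups do not overlap. Other genes named, such as Stx4a, Stx6, Stx8, Stx17, Snap29, Vamp3, Syt5, Syt12, Stxbp5, Stxbp5l, Rab34, Rab35, Rab3gap2 and Rab3ip, and those of the other lists, were chosen after their values were seen. Promoters are those of RefSeq on GRCr8. No array was left out of the fit used.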

Additional observations from a re-analysis of the deposited data

How the results depend on the processing

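In surviving minus dying, the count of genes past the threshold was 0 under every alternative except without dying replicate 2, where it was 12 (0 to 12 over the fits with an array left out); all probes went from 0 to 5408 there and to 2 in the series table. The median difference of 0.58 stayed positive throughout; it was 0.24 with scaling by RefSeq probes, 1.19 with normexp, and 0.18 to 0.81 with an array left out. Of 32 genes named for that comparison, 20 kept their sign under every alternative and 12 did not.

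In surviving minus sham the count of 7 genes became 4 with quantile normalisation, 0 with normexp, 3 with only genes above background on all 4 arrays, 4 with non-uniform spots kept, 15 with only the 2 groups in the fit, 13 with array weights, and 0 to 12 with an array left out. The median of -0.5 turned to 0.28 (75th percentile), 0.47 (probes above background on all 8 arrays), 0.19 (quantile), 0.32 (normexp) and 0.34 (series table), and lay between -0.65 and -0.28 with an array left out. All probes called went from 4388 to 1781 with the stricter filter, 10456 with only the 2 groups, 10993 with array weights, 0 with normexp (2924 at an unadjusted p under 0.05 by limma), and 190 to 7705 with an array left out. Their split of 1555 higher and 2833 lower became 3861 and 1304 under the 75th percentile, and 5006 and 1394 with probes above background on all 8 arrays. The cause was not tested.

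In dying minus sham the count of 18 genes became 0 with normexp, 16 with only the 2 groups in the fit, 15 with array weights (0 higher), and 3 to 27 with an array left out, with 3 without sham replicate 1. The median of -1.11 kept its sign, at -0.38 (75th percentile), -0.1 (probes above background on all 8 arrays), -0.16 (quantile), -0.47 (normexp), -0.31 (series table) and -1.59 to -0.42 with an array left out. All probes called went from 10456 to 5536 with the stricter filter, 8539 with only the 2 groups and 8066 with array weights (fewer than in surviving minus sham under both), 0 with normexp (2856 at an unadjusted p under 0.05 by limma), and 1857 to 12794 with an array left out. Their split of 3481 higher and 6975 lower became 6666 and 4407 under the 75th percentile, and 8191 and 3808 with probes above background on all 8 arrays. The cause was not tested. Each gene called in either comparison with sham kept its sign under every alternative tried.

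Replicate numbers were also taken as pairs in a block. Deviations of same-numbered arrays correlated between -0.06 and 0.07 over 15254 probes for the other pairs of groups and at -0.19 for surviving and dying, and over 51 probes of the genes described between 0.01 and 0.28 and at -0.25. With that block 3 genes passed in surviving minus sham (2702 probes), all lower, and 16 in dying minus sham, 1 of them higher. A crossed pairing of surviving and dying, chosen after seeing the data, gave 0 probes and 0 genes by limma. At an unadjusted p under 0.05 there were 10 of 57 genes, beside 5698 of 27393 probes.

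Sham against naïve gave 0 genes under every alternative and 1 probe with quantile normalisation, with a median between 0.03 and 0.93. Where 1 array was left in a group, its spread was taken to be that of the remaining groups. With 2 pools a group, and signal near background for many genes, small differences cannot be seen, and injury cannot be told apart from slide.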
